A study of Mus musculus with 12 samples.

Results

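Imprinted genes are expressed mainly from the copy inherited from 1 parent, and many of them set the growth of the fetus and placenta. Described here are 10 imprinted growth genes in fetal mouse kidneys that were cultured with beta-catenin activated or left wildtype: Plagl1, Mest, H19, Peg3, Dlk1, Grb10, Cdkn1c, Peg10, Ndn and Nnat. Their measurements were the probe sets whose only gene symbol in the platform annotation was that of a listed gene, 21 of 22690 probe sets on the array. These covered 9 of the 10 genes, out of 12393 genes measured. H19 had no probe set of its own, because the one that names it names another gene as well, and no value is given for it.

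The activated group was 6 samples with the genotype "beta-catenin activated", described as cultured fetal kidney with tumors, and the other group was 6 wildtype samples of normal cultured fetal kidney, all of the C57BL/6 strain. In both groups the pregnant mother had received tamoxifen, at 2 mg per 40 g of body weight, and kidneys were taken 10.5 days post coitum and cultured for 3 to 4 days. The labels name neither the Cre driver nor the allele that activates beta-catenin, and they do not say that samples came from separate animals. Y-linked signal differed between arrays within 3 of the 4 groups of genotype and run, so these did not hold repeats of 1 animal alone, but how many animals stand behind the p-values is not given. The sample titles carry numbers that form a lower-numbered run (replicates 1 to 3 of each genotype) and a higher-numbered run (replicates 4 to 6), and what the runs stand for is not given. Levels are log2(intensity + 16) after quantile normalisation, differences are on that log2 scale, and a change was called at an adjusted p of 0.05 or less from limma over 12393 genes.

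Of the 4 measured genes of a list of embryonic kidney markers, 4 lay above the highest bacterial control, 5.45 on the log2 scale, which served as the floor of detection. The arrays measure the summed RNA of both parental copies, so nothing here bears on which copy was read. Over the whole array, 1379 genes (11.1%) were called between the higher-numbered and the lower-numbered run with genotype in the model, against 13 genes (0.105%) between activated and wildtype kidneys with the run in the model.

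As background, the listed genes act at several points of growth control. Plagl1 (also known as Zac1) and Peg3 encode zinc finger proteins of the nucleus, and Plagl1 is known in the mouse as a regulator of other imprinted genes. Mest encodes a protein of the alpha/beta hydrolase family and Dlk1 a membrane protein with EGF-like repeats, and loss of either slows fetal growth in mice. Grb10 is an adaptor that binds the insulin and insulin-like growth factor receptors and restrains growth, and Cdkn1c (p57) is an inhibitor of cyclin-dependent kinases that is needed in kidney development. H19 is a non-coding RNA beside Igf2, Peg10 derives from a retrotransposon and is needed in the placenta, Ndn (necdin) is a MAGE family protein of the locus lost in Prader-Willi syndrome in humans, and Nnat (neuronatin) is a small membrane protein of neural and endocrine tissue.

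The promoters of the 4 members with the smallest p for the activation effect, Plagl1, Mest, Peg3 and Grb10, are shown to give the genes' positions and base composition. Each is the 250 bases before a start site in RefSeq's table for GRCm38.p6, written 5′ to 3′ on the gene's strand, with the run GGGGCC or its reverse complement GGCCCC in capitals. The windows are chr10:13090582-13090831 on the plus strand for Plagl1, chr6:30737800-30738049 on the plus strand for 1 of the 3 starts listed for Mest, chr7:6730420-6730669 on the minus strand for Peg3 and chr11:12037421-12037670 on the minus strand for 1 of the 2 starts listed for Grb10.
Plagl1: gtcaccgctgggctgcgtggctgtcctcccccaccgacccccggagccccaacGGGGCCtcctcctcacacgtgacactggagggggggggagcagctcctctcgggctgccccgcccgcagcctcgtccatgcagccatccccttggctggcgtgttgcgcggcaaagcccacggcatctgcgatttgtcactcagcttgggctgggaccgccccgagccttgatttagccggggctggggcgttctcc
Mest: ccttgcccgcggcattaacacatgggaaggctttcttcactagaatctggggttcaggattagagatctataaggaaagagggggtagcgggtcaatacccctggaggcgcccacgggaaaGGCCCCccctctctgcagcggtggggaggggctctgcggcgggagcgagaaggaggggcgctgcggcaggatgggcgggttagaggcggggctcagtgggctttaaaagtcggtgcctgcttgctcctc
Peg3: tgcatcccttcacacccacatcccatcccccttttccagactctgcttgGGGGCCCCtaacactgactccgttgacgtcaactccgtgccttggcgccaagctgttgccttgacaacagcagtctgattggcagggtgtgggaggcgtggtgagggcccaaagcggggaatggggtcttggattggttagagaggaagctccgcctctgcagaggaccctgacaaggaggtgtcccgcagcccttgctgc
Grb10: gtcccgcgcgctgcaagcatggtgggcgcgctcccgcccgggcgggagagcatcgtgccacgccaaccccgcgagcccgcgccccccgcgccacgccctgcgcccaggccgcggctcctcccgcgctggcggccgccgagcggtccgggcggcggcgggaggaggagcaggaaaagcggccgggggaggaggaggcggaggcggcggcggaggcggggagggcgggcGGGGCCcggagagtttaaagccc

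These windows were rich in G and C, at 70.4% for Plagl1, 62.4% for Mest, 60.4% for Peg3 and 81.2% for Grb10. The number of CpG pairs in a window was 19 for Plagl1, 14 for Mest, 8 for Peg3 and 40 for Grb10. The table had 10 windows for 7 of the 10 listed genes. The core of the Tcf/Lef motif, CTTTGA or its reverse complement TCAAAG, through which beta-catenin's partner factors bind DNA, was in 0 of the 10 windows, where 13.8% of 32817 windows of the same length hold it. GGGGCC or GGCCCC, a G-rich run of the kind that Plagl1's zinc fingers bind, was in 6 of the 10, against 22% of the 32817 windows. All 6 belonged to Plagl1, Mest, Peg3 and Grb10, and every window listed for Mest was among them. The windows of Dlk1, Ndn and Nnat and the other window listed for Grb10 did not hold the run. The 32817 windows were not matched to those of the members for their share of G and C. Both strands were searched. In Peg3 the run and its reverse complement overlap. A pair of the windows for Mest overlap as well and share 1 match, which is counted for both. A match or its absence in these 250 bases is a description of the letters only, and binding was not tested.

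Of the 21 probe sets, 17 had a mean above the control floor. Plagl1, Mest, Peg3, Grb10, Ndn and Cdkn1c were bright, with the brightest probe set of each at a mean of 12.43, 12.11, 11.74, 11.70, 11.52 and 11.11. Dlk1 and Nnat were dimmer, at 9.21 and 7.84. Levels of different probe sets are not comparable as amounts of RNA. Peg10 lay below the floor on every array, between 4.23 and 5.33, and no fold is given for it.

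Activated kidneys had less Plagl1 RNA than wildtype kidneys in the lower-numbered run, at 0.693-fold. Plagl1 was the 1 member of 9 called in that run, where 0.597% of all genes were called. Mest, Peg3 and Grb10 were also lower in every activated than in every wildtype array of that run, at 0.686-fold, 0.752-fold and 0.748-fold, without passing the adjusted threshold. Every activated array lay below every wildtype array there for 4 of 9 members and for 7.09% of all genes. These 4 of 9 had an unadjusted p of 0.05 or less there, as had 7.07% of all genes. By limma, 0 members were called in the higher-numbered run, where 1 of 9, Mest, had an unadjusted p of 0.05 or less (6.36% of all genes). With both runs in 1 model 0 of the 9 were called, where 4 of 9 had an unadjusted p of 0.05 or less (8.79% of all genes). The members were chosen with earlier results of these data known, so these shares are a description only. Above the floor lay 8 of the 9 members, against 69.1% of all genes.

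**Figure D1:**
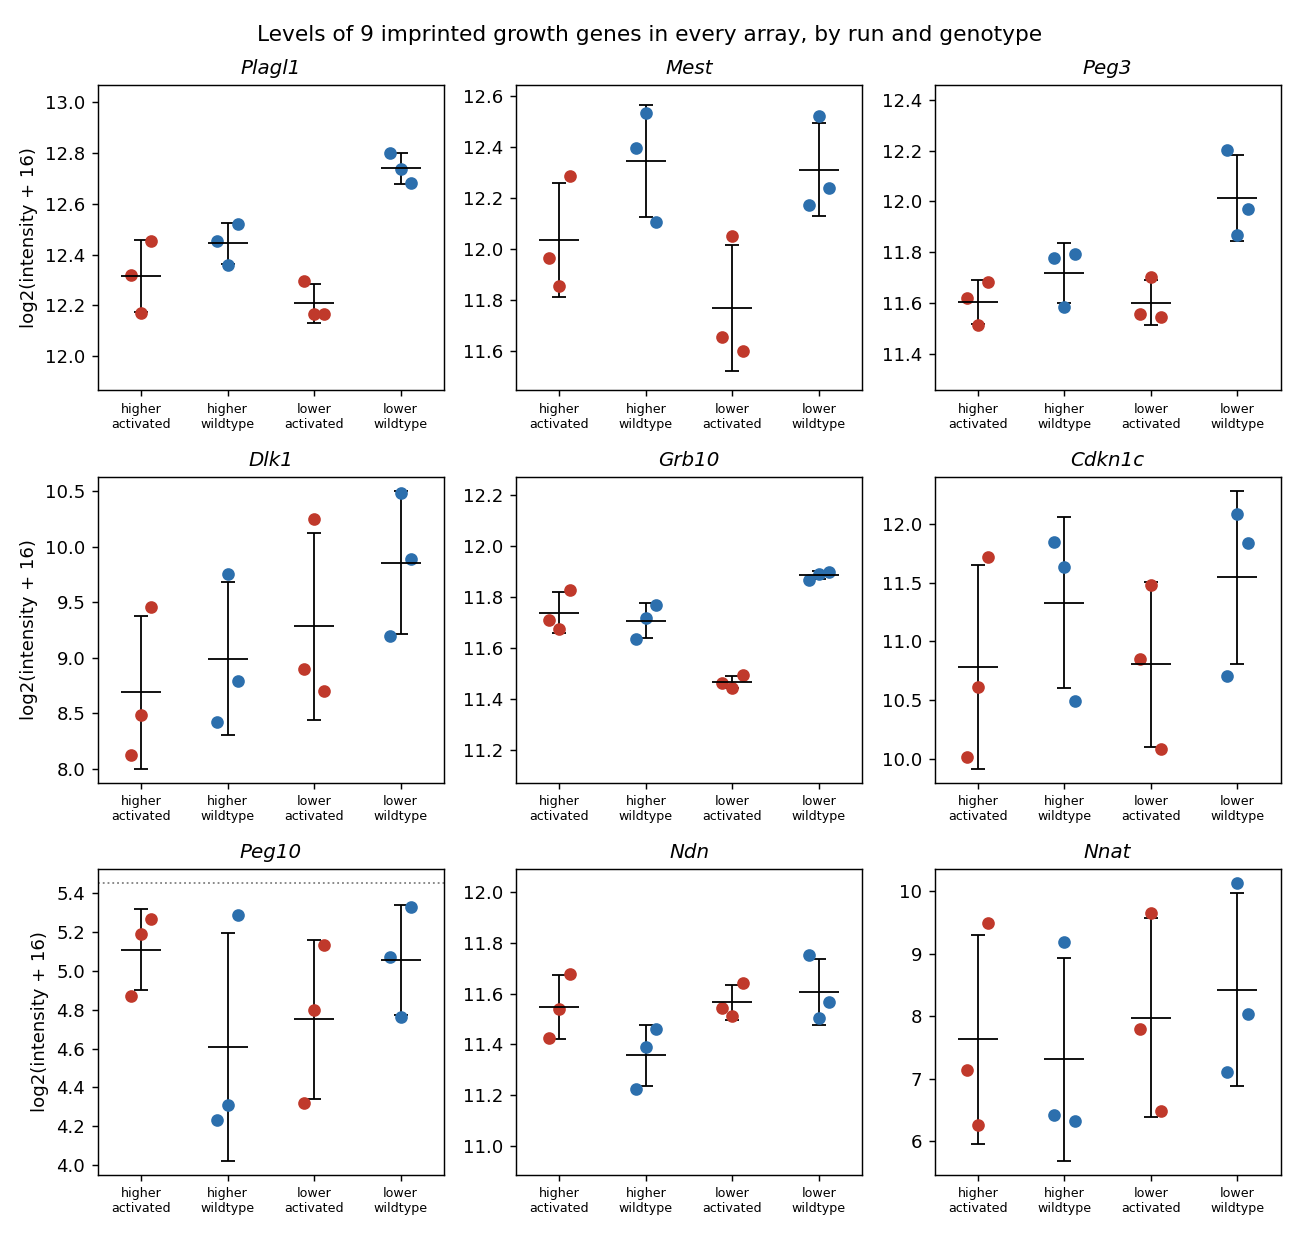
Level of each of the 9 measured genes, as log2(intensity + 16) after quantile normalisation, on each of the 12 arrays (points), with the mean (long bar) and SD (error bar) of the 3 activated (red) or 3 wildtype (blue) arrays of the higher-numbered and the lower-numbered run; each panel has its own scale, and the dotted line is the control floor of 5.45. Plagl1, Mest, Peg3 and Grb10 of the activated arrays lie below those of the wildtype arrays in the lower-numbered run, as do 7.09% of all genes. Nnat, Dlk1 and Cdkn1c spread widely within every group.

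For Plagl1, the levels of the higher-numbered run were 12.32, 12.17 and 12.45 in activated kidneys, against 12.45, 12.36 and 12.52 in wildtype kidneys. Those of the lower-numbered run were 12.30, 12.16 and 12.16 in activated kidneys, against 12.80, 12.74 and 12.68 in wildtype kidneys. The groups overlapped in the higher-numbered run, and in the lower-numbered run every activated array lay below every wildtype array. Without the normalisation, the deposited intensities of the lower-numbered run were 5416, 4376 and 5288 in activated kidneys, against 7412, 7690 and 7529 in wildtype kidneys.

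The difference for Plagl1 in the lower-numbered run was -0.53 (SE 0.08, adjusted p = 0.0218, n = 3 each), where 74 genes (0.597%) were called, 33 of them (0.266%) lower in activated kidneys. In the higher-numbered run it was -0.13 (SE 0.09, adjusted p = 0.878, n = 3 each), where 1 gene (0.00807%) was called in all. Leaving out 1 array moved that value from -0.20 (without activated 6) to -0.056 (without activated 5), and it was -0.039 on the intensities as deposited. The test of the difference between those effects, higher-numbered minus lower-numbered run, gave 0.40 (SE 0.12, adjusted p = 0.285), so the effect was not shown to differ between runs; 41 genes (0.331%) passed that test, 0 of them members, and 3 of 9 members (Plagl1, Peg3 and Grb10) had an unadjusted p of 0.05 or less in it, as had 6.11% of all genes. Over all 12 arrays with the run in the model Plagl1 differed by -0.33 (SE 0.08, adjusted p = 0.12, n = 6 each). Without the run term the adjusted p was 0.332, with 3 genes (0.0242%) called in all, 0 of them members; 4 of 9 members had an unadjusted p of 0.05 or less there, as had 6.15% of all genes.

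The call for Plagl1 depended on single arrays and on the scaling. Leaving out each array of the lower-numbered run in turn gave differences between -0.57 and -0.50, and the adjusted p stayed under the threshold only without activated 2 (0.0416), and lay between 0.0875 and 0.122 without each of the other 5 arrays. On the intensities as deposited the difference was -0.59 with an adjusted p of 0.134, and with arrays centred on their medians it was -0.60 with an adjusted p of 0.614. The adjusted p was 0.431 with the mean of its probe sets and 0.374 without a variance trend. The second probe set of Plagl1, far dimmer at a mean of 6.19, differed by -0.47 (SE 0.34) in the lower-numbered run and was not called when every probe set was tested alone, while the brighter one was (adjusted p = 0.0419).

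Of the 10 cell type marker lists, the mean levels of 4 did not overlap between genotypes in the lower-numbered run, with activated kidneys lower. Limma called there 2 of 7 nephron progenitor (Six2 and Meox1), 1 of 7 renal stroma (Foxd1), 1 of 6 ureteric bud (Calb1) and 0 of 4 embryonic kidney markers. Over all genes 0.597% were called there, and 0.266% were called lower in activated kidneys. Of the 4 embryonic kidney markers, 2 had an unadjusted p of 0.05 or less, as had 7.07% of all genes. Nephron progenitor markers (7 of 7 measured genes above the floor) had list means of 6.97 to 7.19 in activated kidneys and 7.25 to 7.42 in wildtype kidneys in the higher-numbered run. These means were 6.02 to 6.43 in activated kidneys and 7.34 to 7.68 in wildtype kidneys of the lower-numbered run. Renal stroma markers (7 of 7 above the floor) were at 9.71 to 9.91 in activated kidneys and 10.06 to 10.27 in wildtype kidneys of the lower-numbered run, and at 10.04 to 10.12 in activated kidneys and 9.80 to 9.95 in wildtype kidneys of the higher-numbered run. In the higher-numbered run 5 of the 7 were higher in activated kidneys, while Foxd1 (-0.22) and Pdgfra (-0.088) were lower. Ureteric bud markers (3 of 6 above the floor) were at 6.55 to 6.72 in activated and 6.89 to 6.98 in wildtype kidneys of the lower-numbered run, and overlapped in the higher-numbered run, at 6.35 to 6.68 in activated and 6.52 to 6.88 in wildtype kidneys. Of the 3 above the floor, Calb1 was at -1.02 in the lower-numbered run, Gata3 at -0.11 and Wnt11 at 0.044. Hoxb7 (-0.69) and Ret (0.28) lay below the floor, and the list median was -0.13. Embryonic kidney markers (4 of 4 above the floor) were at 7.51 to 7.76 in activated and 7.77 to 8.03 in wildtype kidneys of the higher-numbered run, and at 7.61 to 7.80 in activated and 7.88 to 8.38 in wildtype kidneys of the lower-numbered run. The mean levels of the podocyte, endothelium, macrophage, skeletal muscle, neuron and adrenal lists overlapped between genotypes in the lower-numbered run. Such means can hide opposite moves of single genes. There Elavl4 (-1.29) and Tubb3 (1.04) of the neuron list, Acta1 (0.89) of muscle and Cd68 (-0.24) of macrophages did not overlap between genotypes. Limma called none of them, and 7.09% of all genes were apart there with activated lower. In such whole-organ samples fewer cells of a type and less RNA per cell cannot be told apart, and the part of these markers in the results for Plagl1 and the other members was not tested.

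For Peg3, levels in the higher-numbered run were 11.62, 11.51 and 11.68 in activated kidneys, against 11.78, 11.58 and 11.80 in wildtype kidneys. The lower-numbered run had 11.56, 11.70 and 11.55 in activated kidneys, against 12.20, 11.87 and 11.97 in wildtype kidneys. The activated means of the runs were close, at 11.61 ± 0.09 and 11.60 ± 0.09 (SD, n = 3 each), while the wildtype means were 11.72 ± 0.12 in the higher-numbered and 12.01 ± 0.17 in the lower-numbered run. The difference between genotypes was -0.11 (SE 0.09, adjusted p = 0.888) in the higher-numbered run and -0.41 (SE 0.11, adjusted p = 0.215) in the lower-numbered run. A second bright probe set of Peg3 differed by -0.34 (SE 0.07, adjusted p = 0.102 over all probe sets) with both runs in the model.

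For Mest, levels in the higher-numbered run were 11.96, 11.85 and 12.29 in activated kidneys, against 12.40, 12.53 and 12.10 in wildtype kidneys. Those of the lower-numbered run were 11.65, 12.05 and 11.60 in activated kidneys, against 12.17, 12.52 and 12.24 in wildtype kidneys. Wildtype 6 lay below activated 6, so the groups overlapped in the higher-numbered run and were apart in the lower-numbered one. Mest had the largest difference among the 4 with the run in the model, -0.43 (SE 0.11, adjusted p = 0.142, n = 6 each). By run the difference was -0.31 (SE 0.14, adjusted p = 0.779) in the higher-numbered and -0.54 (SE 0.14, adjusted p = 0.187) in the lower-numbered run, and the test between runs gave 0.23 (SE 0.21, adjusted p = 0.999). With the run and the 5′ to 3′ control signal ratio of each array in the model, Mest fell by 0.51 (SE 0.08, adjusted p = 0.0124). In that fit limma called 1 of 9 members and 52 of 12393 genes. The ratio was not balanced between genotypes. Mest itself averaged 12.35 in the 4 arrays with the highest ratio and 12.00 in the other 8.

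For Grb10, levels in the higher-numbered run were 11.71, 11.68 and 11.83 in activated kidneys, against 11.63, 11.72 and 11.77 in wildtype kidneys. The lower-numbered run had 11.46, 11.44 and 11.49 in activated kidneys, against 11.87, 11.89 and 11.90 in wildtype kidneys. The 3 arrays of a group lay closest together here, with an SD of 0.03 in activated and 0.01 in wildtype kidneys of the lower-numbered run. The difference was 0.031 (SE 0.08, adjusted p = 0.969) in the higher-numbered and -0.42 (SE 0.09, adjusted p = 0.0794) in the lower-numbered run. The test between runs gave 0.45 (SE 0.10, adjusted p = 0.108). The other 2 probe sets of Grb10, at means of 7.47 and 6.23, differed by -0.11 (SE 0.25) and 0.11 (SE 0.37) in the lower-numbered run. With SEs of this size they neither repeated nor went against the difference of the brightest one. With the mean of the 3 probe sets and the run in the model, the sign of the Grb10 difference turned, to 0.016, against -0.19 for the brightest one.

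Cdkn1c varied more within groups than between them. Its levels in the higher-numbered run were 10.01, 10.61 and 11.72 in activated kidneys, against 11.85, 11.64 and 10.50 in wildtype kidneys. Those of the lower-numbered run were 10.85, 11.48 and 10.08 in activated kidneys, against 10.71, 12.09 and 11.84 in wildtype kidneys. With the run in the model the difference was -0.64 (SE 0.33, adjusted p = 0.614), larger than that of Plagl1 but with overlapping groups in both runs.

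Dlk1 had levels in the higher-numbered run of 8.12, 8.48 and 9.46 in activated kidneys, against 8.42, 9.76 and 8.79 in wildtype kidneys. Those of the lower-numbered run were 8.90, 10.25 and 8.70 in activated kidneys, against 9.20, 10.49 and 9.89 in wildtype kidneys. The genotypes overlapped in both runs, and with the run in the model they differed by -0.44 (SE 0.31, adjusted p = 0.755). The higher-numbered run was below the lower-numbered run by a difference of -0.73 (SE 0.31, adjusted p = 0.163).

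Ndn overlapped between genotypes in both runs. Its levels in the higher-numbered run were 11.42, 11.54 and 11.68 in activated kidneys, against 11.23, 11.39 and 11.46 in wildtype kidneys. The lower-numbered run had 11.55, 11.51 and 11.64 in activated kidneys, against 11.75, 11.50 and 11.57 in wildtype kidneys. The difference was 0.19 (SE 0.09, adjusted p = 0.823) in the higher-numbered run and 0.073 (SE 0.07, adjusted p = 0.837) with the run in the model, from the brightest of its 8 probe sets, 5 of which lay above the floor, and -0.039 with the mean of all 8.

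Nnat had the widest range of the members. Its levels in the higher-numbered run were 7.14, 6.26 and 9.49 in activated kidneys, against 6.42, 9.18 and 6.32 in wildtype kidneys. Those of the lower-numbered run were 7.79, 9.65 and 6.49 in activated kidneys, against 7.11, 10.13 and 8.04 in wildtype kidneys. A single array stood high in each of the 4 groups, and the genotypes differed by -0.064 (SE 0.69, adjusted p = 0.994).

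**Figure D2:**
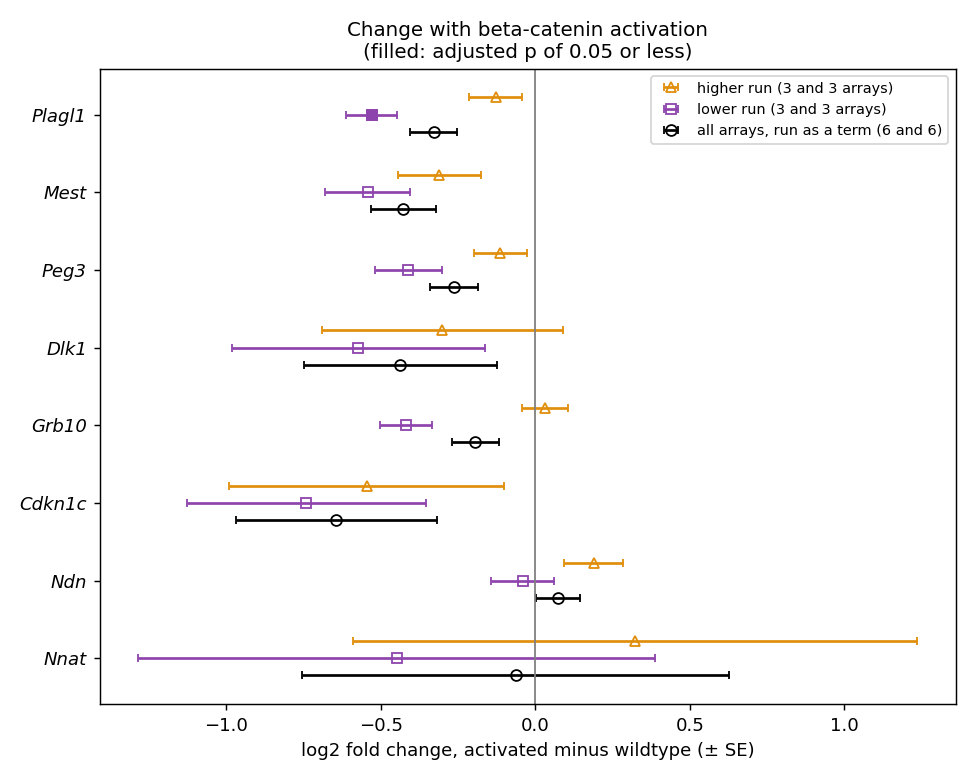
Log2 difference, activated minus wildtype, of each of the 8 members above the control floor (symbols) with its moderated SE (bars), in the higher-numbered run, in the lower-numbered run (3 and 3 arrays each) and over all arrays with the run in the model (6 and 6). The 1 filled marker is Plagl1 in the lower-numbered run, and the bars of Nnat, Cdkn1c and Dlk1 are the longest.

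Over the 9 measured genes, 7 had a negative difference with the run in the model, where 53.4% of all genes did, and the median was -0.26, against -0.01 over all genes. In the higher-numbered run 5 of 9 were negative with a median of -0.11, against 0.00 over all genes; the median was -0.041 on the intensities as deposited and -0.031 with arrays centred on their medians. In the lower-numbered run 9 of 9 were negative, Peg10 below the floor among them, with a median of -0.45, against -0.03 over all genes. At an unadjusted p of 0.05 or less, 4 of the 9 were lower in activated kidneys with the run in the model (4.65% of all genes), namely Plagl1, Mest, Peg3 and Grb10, and the same number in the lower-numbered run (3.52% of all genes). Groups did not overlap, with activated lower, for 4 of 9 in the lower-numbered run (7.09% of all genes), for 0 of 9 in the higher-numbered run (5.73%) and for 0 of 9 over all 12 arrays (0.21%). These shares describe genes picked as imprinted growth genes with earlier results of the data known, and no test was made over the list.

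The 4 arrays in which Nnat was high were also those with the highest 5′ to 3′ signal ratio over the Gapdh and beta-actin controls, a measure of how complete the labelled RNA was. On the log2 scale this ratio was -0.26 in activated 2, -1.05 in activated 6, -1.43 in wildtype 2 and -1.86 in wildtype 5, and between -2.41 and -1.99 in the other 8 arrays. Nnat averaged 9.62 in these 4 arrays and 6.95 in the other 8, and its lowest level among the 4, 9.18, lay above its highest among the 8, 8.04. The 4 arrays hold both genotypes and both runs. Among them the activated arrays had the higher ratios, at -0.26 and -1.05, against -1.43 and -1.86 in the wildtype arrays, so the ratio was not balanced between genotypes. Signal of the sex chromosomes moved with it in part: in 3 of the 4 arrays, all but activated 2, the 3 Y-linked genes averaged 4.24 to 4.48 and Xist lay at 11.52 to 11.90, while the Y-linked genes averaged 7.38 in activated 2 and 7.54 to 8.65 in the other 8 arrays. Xist was also high, at 10.90, in activated 4, an array of low ratio with a Y-linked mean of 7.54, and lay between 4.21 and 6.08 in the other 8 arrays with Y-linked signal.

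**Figure D3:**
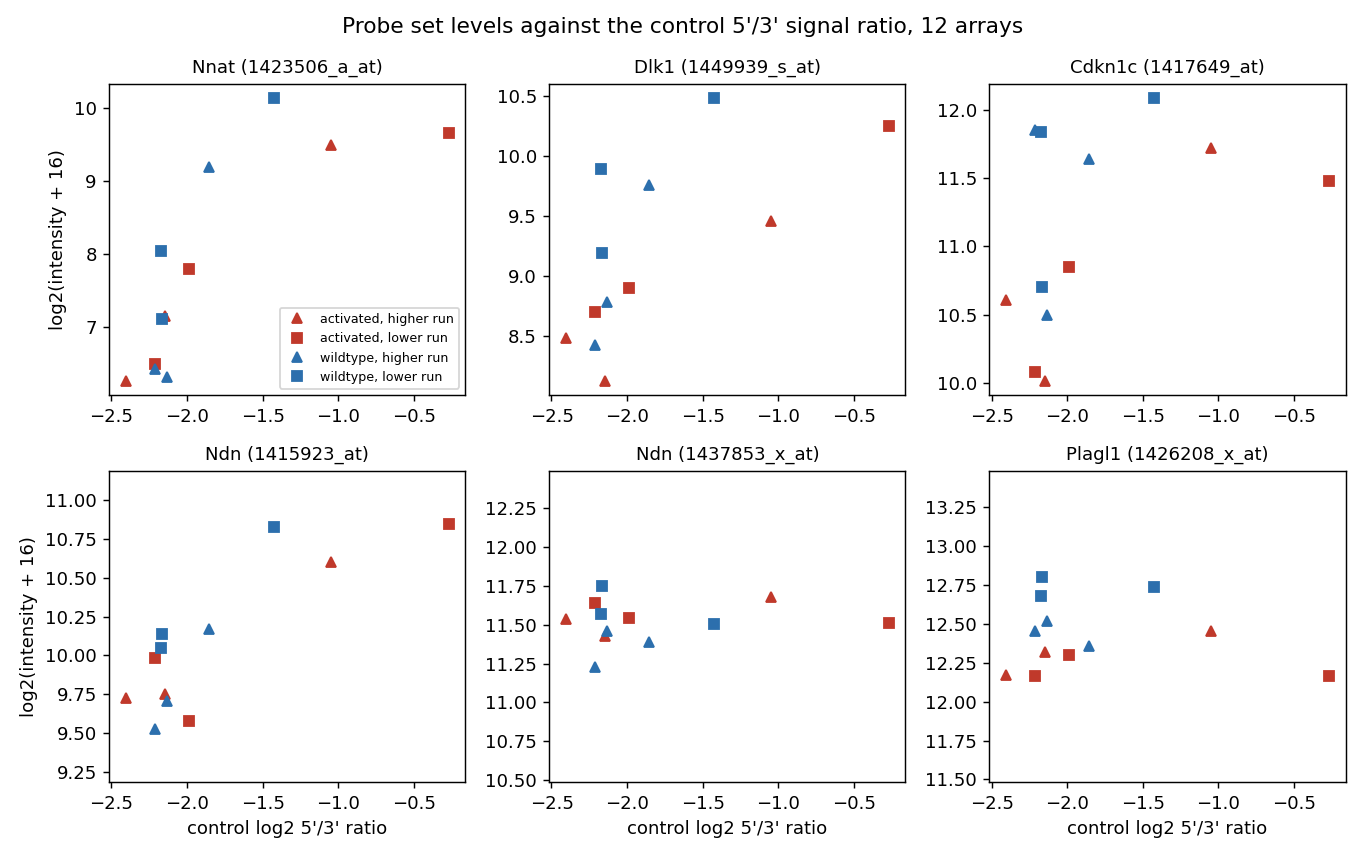
Level of selected member probe sets against the log2 5′ to 3′ control signal ratio, 1 point an array, by genotype (colour) and run (symbol); each panel has its own scale. The 4 arrays with the highest ratio have the 4 highest levels of Nnat and of 1 Ndn probe set. The brighter Plagl1 probe set, the only one of Plagl1 drawn, shows no such order.

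The same order held for 1 of the 8 Ndn probe sets, which averaged 10.61 in the 4 arrays and 9.81 in the other 8, while the brightest Ndn probe set averaged 11.52 in both. In all, 2 of the 17 member probe sets above the floor had every one of the 4 arrays above every one of the 8, against 3.64% of the 13442 probe sets above the floor on the array. Dlk1 averaged 9.99 in the 4 arrays and 8.81 in the other 8, and Cdkn1c 11.73 and 10.81, with overlap between the arrays. Mest averaged 12.35 in the 4 arrays and 12.00 in the other 8, with overlap, and 3 of its 4 highest levels were in the 4 arrays. Plagl1's brighter probe set averaged 12.43 in both, and its dimmer one 6.52 in the 4 arrays and 6.02 in the other 8. The 2 dimmer Grb10 probe sets were higher in the 4 arrays by 0.45 and 0.61. Markers of neurons and neural crest (2 of 5 above the floor), cells known to express Nnat and Ndn, had list means of 5.26 to 5.64 over all arrays, around the floor of 5.45. Those of adrenal gland and gonad (1 of 4 above the floor) had list means of 4.53 to 5.15. The part of the ratio in the levels of Nnat, Ndn, Dlk1, Cdkn1c and Mest was not tested beyond the fit with it as a covariate, and where in the transcripts these probe sets lie is not given in the tables used here.

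Between runs, with genotype in the model, limma called 0 of the 9 members, and 1 of 9 (Dlk1) had an unadjusted p of 0.05 or less, as had 24% of all genes, where 519 genes (4.19%) were lower and 860 (6.94%) higher in the higher-numbered run. The members differed by between -0.73 for Nnat and Dlk1 and 0.15 for Mest, with a median of -0.12. For Plagl1 the difference was -0.094 (SE 0.08), for Peg3 -0.15 (SE 0.08), for Grb10 0.046 (SE 0.08) and for Ndn -0.13 (SE 0.07). These values depended on the scaling: on the intensities as deposited Plagl1 differed by -0.33 and was called (adjusted p = 0.0446) and Peg3 by -0.27 (adjusted p = 0.052), and the members' median was -0.25, or -0.23 with arrays centred on their medians.

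Genes that share an imprinted locus with a member were also read in both comparisons. Of 40 such partners listed, 30 were measured and 22 lay above the floor; limma called 0 between genotypes in any comparison (4 of 30 had an unadjusted p of 0.05 or less with the run in the model, where 8.79% of all genes did), and 6 of 30 were lower in the higher-numbered run, where 4.19% of all genes were. As over the whole array, more of them were called between runs than between genotypes. Meg3, the maternally expressed non-coding RNA beside Dlk1, had levels of 10.34, 10.69 and 10.84 in activated and 10.45, 10.56 and 10.25 in wildtype kidneys of the higher-numbered run. Its levels were 11.45, 11.17 and 11.10 in activated and 11.05, 11.64 and 11.57 in wildtype kidneys of the lower-numbered run, so the runs did not overlap. Its difference between runs was -0.81 (SE 0.12, adjusted p = 0.000497).

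Asb4, an ankyrin repeat protein gene of the Peg10 locus, was lower in the higher-numbered run by a difference of -0.79 (SE 0.16, adjusted p = 0.00544), and Casd1 of the same locus by -0.30 (SE 0.08, adjusted p = 0.0289). Tssc4 (-0.60, SE 0.16, adjusted p = 0.0214) and Nap1l4 (-0.40, SE 0.10, adjusted p = 0.0128), neighbours of Cdkn1c, and Ddc (-0.50, SE 0.15, adjusted p = 0.0496), the dopa decarboxylase gene beside Grb10, made up the 6. Sgce, which lies beside Peg10, was not called between runs (0.45, SE 0.18, adjusted p = 0.136).

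Between genotypes, the partners with the smallest adjusted p with the run in the model were Usp29 beside Peg3, Pon2 near Peg10, Cd81 near Cdkn1c, and Sgce. Pon2 differed by 0.57 (SE 0.18, adjusted p = 0.334), Cd81 by 0.29 (SE 0.10, adjusted p = 0.391) and Sgce by 0.39 (SE 0.18, adjusted p = 0.566), and Usp29 lay below the floor. Igf2, the growth factor of the H19 locus, had levels of 11.57, 11.91 and 11.85 in activated and 11.79, 11.86 and 12.08 in wildtype kidneys of the higher-numbered run. It had 11.60, 12.05 and 11.38 in activated and 11.84, 11.50 and 11.78 in wildtype kidneys of the lower-numbered run. Its groups overlapped in both runs, and it differed by -0.083 (SE 0.11, adjusted p = 0.874).

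**Figure D4:**
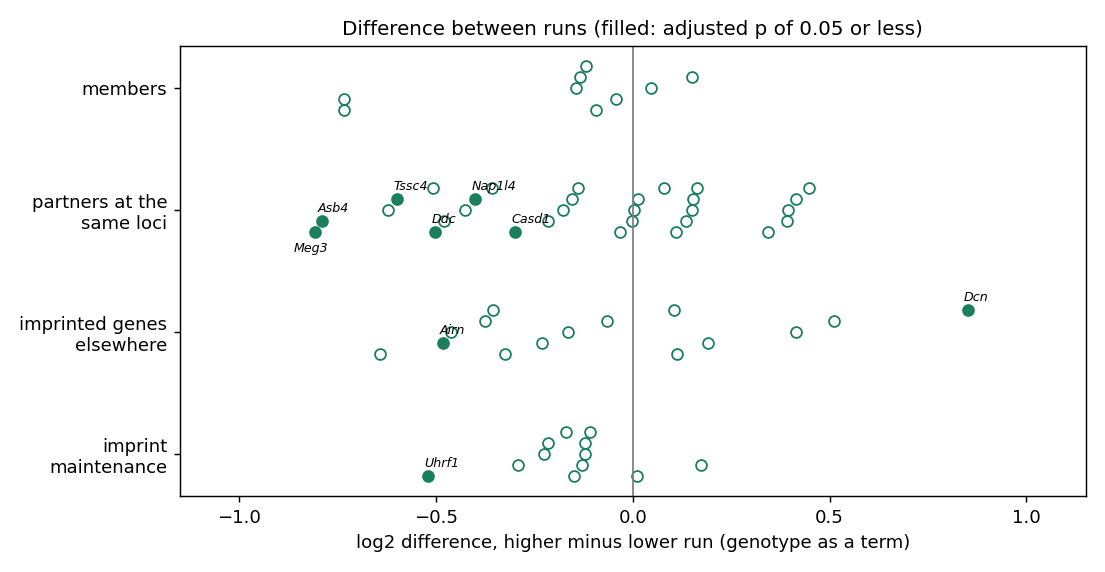
Log2 difference between runs, higher-numbered minus lower-numbered with genotype in the model, 1 point for each measured gene of the members, the partners at their loci, the imprinted genes elsewhere and the imprint maintenance genes, with genes called at an adjusted p of 0.05 or less filled and named; heights within a row carry no value. The members hold 0 filled points, the partners 6, all to the left, and Dcn is the 1 filled point to the right.

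Among imprinted genes of other loci, 15 of 22 listed were measured and 11 lay above the floor. Dcn, which encodes the matrix proteoglycan decorin and is imprinted in mouse placenta, was the 1 called between genotypes. It was called with the run in the model, where 0.105% of all genes were called. Its levels in the higher-numbered run were 10.95, 11.01 and 10.82 in activated kidneys, against 10.29, 9.93 and 9.97 in wildtype kidneys. Those of the lower-numbered run were 9.87, 9.94 and 9.98 in activated kidneys, against 9.57, 9.17 and 9.34 in wildtype kidneys. Every activated array lay above every wildtype array of its run, and with the run in the model Dcn rose by 0.72 in activated kidneys (SE 0.09, adjusted p = 0.00668), opposite in sign to Plagl1 and Mest. It was not called in the other genotype fits, with an adjusted p of 0.146 in the higher-numbered run, 0.178 in the lower-numbered run and 0.592 without the run term.

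Dcn was also higher in the higher-numbered run, by 0.85 (SE 0.09, adjusted p = 2.72e-05), and Airn, the non-coding RNA of the Igf2r locus, was lower there, by a difference of -0.48 (SE 0.14, adjusted p = 0.0356). Gnas, which encodes the stimulatory G protein alpha subunit, differed between genotypes by -0.11 (SE 0.06, adjusted p = 0.646) and Tfpi2, a protease inhibitor gene, by -0.32 (SE 0.18, adjusted p = 0.668), and Dlx5, a homeobox gene, lay below the floor.

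Of 14 listed genes that maintain imprints, 12 were measured, 8 of them above the floor, and limma called 0 between genotypes. With the run in the model 1 of the 12 had an unadjusted p of 0.05 or less, as had 8.79% of all genes. Trim28, the corepressor that imprint-protecting zinc finger proteins recruit, differed by -0.27 (SE 0.08, adjusted p = 0.31) with the run in the model. The DNA methyltransferases Dnmt3a and Dnmt3b differed by -0.19 (SE 0.10, adjusted p = 0.63) and -0.13 (SE 0.14, adjusted p = 0.85), and Dppa3 lay below the floor. Uhrf1, which recruits the maintenance methyltransferase, was lower in the higher-numbered run by a difference of -0.52 (SE 0.13, adjusted p = 0.0158). It was the 1 gene of this list called between runs, where 11.1% of all genes were called. Of Plagl1's 2 relatives, Plagl2 differed between genotypes by -0.19 (SE 0.13, adjusted p = 0.732), and Plag1 lay below the floor.

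The genes whose profiles over the 12 arrays lay nearest to that of Plagl1 were found by the root mean square difference of centred log2 levels, over 8560 genes above the floor. The nearest was Peg3, at 0.0983, followed by Eif4enif1 at 0.102, Zc3h10 at 0.112, Grb10 at 0.118 and Akr7a5 at 0.120, where the median gene lay at 0.337. Of the 8 members above the floor, Plagl1 itself included, 2 were among the 5 nearest genes. Ndn stood at rank 899, Mest at 1119, Cdkn1c at 7989, Dlk1 at 8082 and Nnat at 8529 of 8560. Peg3 and Grb10 also shared Plagl1's difference between genotypes in the lower-numbered run, so their nearness is no separate result. This measure favours genes of small spread, since Plagl1's own root mean square deviation was 0.213, and all the profiles share the same arrays, runs and normalisation.

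For Mest the nearest were Pgam5 at 0.120, Ramp2 at 0.130, Fdx1 at 0.136, Maf1 at 0.137 and Gar1 at 0.159, with a median of 0.414 over the 8560 genes. None of these is on the lists used here. Grb10 stood at rank 109 and Plagl1 at rank 156 in the order for Mest.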

How the data were processed

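RNA of 12 cultured fetal kidney samples, 6 activated and 6 wildtype, was measured on Affymetrix 3′ arrays, per the labels' protocols. The deposited table holds 1 linear intensity per probe set and array; the authors' software and background correction are not given in the sources used here. With 2% of values trimmed at each end the array means were all 250.1, which shows a scaling of each array before deposit. There are no detection calls, so the highest of 27 bacterial control probe sets (29.0 as an intensity) served as the floor. The number of arrays limits the precision.

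Intensities were taken as log2(intensity + 16), which understates changes of dim genes, and quantile normalised, since array quartiles differed by up to 0.29. Probe sets with 1 gene symbol (20380 of 22690) were used, and the brightest represented its gene; 691 with several symbols, 1555 with none listed and 64 controls were left out. Genotypes were compared in R 4.3.3 with limma 3.58.1 (moderated linear model with a variance trend, Benjamini-Hochberg adjustment over 12393 genes, threshold 0.05), over all arrays, with the run as a term, within each run, and by an interaction. The calculation was tested on simulated data. Plots were drawn with matplotlib 3.10.9.

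The members and all gene lists were chosen with earlier results of these data known. Named genes were the members, Igf2, Plag1 and Plagl2, the members of each list of imprinted or imprint-maintaining genes called in any comparison, up to 4 of each such list with the smallest adjusted p with the run as a term, and the 5 genes nearest in profile to Plagl1 and to Mest. Alternatives were the deposited scale, median centring, leaving out the dimmest 40% of genes, the mean of a gene's probe sets, each probe set alone, no variance trend, a pseudocount of 1, the 5′ to 3′ control ratio as a covariate and leaving out each array. Leaving out the 4 arrays with the highest ratio was added after seeing the data.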

Additional observations from a re-analysis of the deposited data

How the results depend on the processing

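Plagl1 was lower in activated kidneys under every alternative run, in both runs and over all arrays, and so were Mest and Peg3, but the calls moved. Exceptions among probe sets tested alone were the dimmer one of Plagl1 (0.069) and the dimmest of Peg3 (0.023) in the higher-numbered run. Between genotypes in the lower-numbered run, 1 member was called in the main fit and 0 on the deposited scale, with median centring, with the mean of a gene's probe sets and without a variance trend. There 2 members were called without the dimmest 40% of genes, Plagl1 and Grb10 (adjusted p = 0.039), with the adjustment made over fewer genes. Over all genes, limma called 39 to 92 in that run under the alternatives, against 74 in the main fit. Without the 4 arrays with the highest 5′ to 3′ ratio, an alternative chosen after seeing the data, Plagl1 differed there by -0.51 (adjusted p = 0.0704) and Mest by -0.58 (adjusted p = 0.028). Leaving out activated 2 gave Mest -0.68 (adjusted p = 0.0461). With the run as a term, 1 member (Mest) was called with the ratio as a covariate, where 52 of 12393 genes were called. Between runs, 1 member was called on the deposited scale (Plagl1, -0.33, adjusted p = 0.0446) and 1 without the 4 arrays (Dlk1, -0.72, adjusted p = 0.0215). Over all genes, the alternatives called 1030 to 1972 between runs.

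Over all genes, the count for all 12 arrays was 1 with the mean of probe sets and without a variance trend, and 0 without the 4 arrays. With the run as a term it was 8 with median centring (7 higher, 1 lower) and with the mean of probe sets, 7 without a variance trend, 52 with the ratio (41 higher, 11 lower) and 1 without the 4 arrays. In the lower-numbered run it was 39 without a variance trend. In the higher-numbered run it was 2 with median centring and 0 with the mean of probe sets, without a variance trend and without the 4 arrays. For the difference between runs of the effect it was 18 with median centring (3 positive, 15 negative), 24 without a variance trend and 89 with the ratio. Leaving out each array gave 0 to 4 genes over all 12 arrays, 4 to 20 with the run as a term, 30 to 87 in the lower-numbered and 0 to 1 in the higher-numbered run, 16 to 47 for the difference of the effect and 1062 to 1639 between runs. For the members it gave 0 to 2 in the lower-numbered run and 0 in every other comparison.

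Signs turned for values that were not called. Between runs, Mest was -0.032 on the deposited scale and -0.012 with median centring, Grb10 -0.076 and -0.056 under these and -0.22 with the mean of probe sets, and Cdkn1c 0.076 with the ratio. With the mean of probe sets, Grb10 was 0.016 over all arrays with and without the run term, and Ndn -0.039 there, 0.026 in the lower-numbered run, -0.10 in the higher-numbered run and -0.13 for the difference of the effect. Without the 4 arrays Grb10 was -0.0093 in the higher-numbered run and Cdkn1c -0.055 for the difference of the effect. Leaving out each array gave Nnat -0.43 to 0.39 over all arrays, -0.52 to 0.36 with the run term, -1.29 to 0.40 in the lower-numbered run, -0.61 to 1.26 in the higher-numbered run and -0.16 to 1.71 for the difference of the effect. It gave Dlk1 -0.69 to 0.084 in the higher-numbered run and -0.11 to 0.76 for the difference, Cdkn1c -0.28 to 0.61 for the difference and -0.34 to 0.076 between runs, Grb10 -0.015 to 0.062 in the higher-numbered run and Ndn -0.093 to 0.031 in the lower-numbered run. The causes were not tested. No paired analysis was possible because the title numbers are not shared between groups and the replicate numbers only name the arrays. Peg10 lay below the floor, so its signal limits any statement on it.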
